A study of Mus musculus with 12 samples.

Results

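Kupffer cells are the macrophages that live in the sinusoids of the liver, and 10 genes that report on them and on macrophages in general were followed through 12 bulk RNA-seq libraries. They were chosen by name, as a readout of the mixture of cells in each sample, and all 10 were found among the 24062 gene rows of the count data. Of the 10, 5 mark resident Kupffer cells (Clec4f, Vsig4, Timd4, Cd5l and Marco), 4 are general macrophage genes (Csf1r, Cd68, Lyz2 and Mrc1) and 1 is a gene of recruited monocytes (Ccr2). All 10 passed the filter on low counts in every comparison.

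The libraries came from 12 mice, 3 in each of 4 groups. The livers were from male MYC-ON mice (LAP-tTA/TRE-MYC, FVB), in which the LAP promoter drives tTA in hepatocytes, so that the MYC transgene came on in these cells when doxycycline was withdrawn at birth. The control diet was given to mice 101, 102 and 103, and food lacking tryptophan (No-Trp) to mice 105, 107 and 108. The xenografts were HCC53N tumors, from 1 line of mouse liver cancer cells with p53 knocked out and mutant NRAS overexpressed, grown subcutaneously in female NOD SCID hosts (NOD-SKID in the labels). Hosts 40, 41 and 43 were controls, and hosts 35, 36 and 37 received No-Trp food. The labels also call the tumor cells FVB MYC ON, and a MYC transgene in them was not checked here. NOD SCID hosts lack mature T and B cells but keep macrophages. Each diet lasted 21 days. The ages of these mice at harvest are not given in the labels. The labels set each sample apart by mouse number and do not otherwise say that litters or experiments were separate, so the p-values measure the spread between these mice.

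Kupffer cells are seeded in the liver before birth, renew themselves there, and clear particles, old red blood cells and bacteria from the portal blood. They carry genes that few other macrophages express, which the liver environment maintains. Monocytes, which carry Ccr2 and enter inflamed tissue or tumors, become macrophages that share Csf1r, Cd68 and Lyz2 with Kupffer cells but start without most of the Kupffer cell genes. In bulk RNA, fewer cells of a type and less RNA per cell cannot be told apart, and this holds for every level below.

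Reads counted on genes ranged from 14660963 to 26085349 per library. Levels are given as CPM, the reads of a gene scaled to those on all genes of its library, corrected for library composition. Ribosomal Rn45s took 12.1% of the reads on genes in control liver 101 and 2.22% in control liver 102. Livers 101 and 108 and control xenografts 41 and 43 carry a mark of resubmission, whose meaning is not given in the sources used here. Summed CPM of 10 hepatocyte markers (Alb, Apoa1 and others) ran from 12344 to 133590 in livers and from 529 to 1775 in xenografts. A gene is said to have passed the test where its adjusted p did not exceed 0.05 and its log2 fold change (FC) was 1 or more in either direction, in edgeR's quasi-likelihood test with Benjamini-Hochberg adjustment over all genes tested. A standard error (SE) belongs to the log2 FC before it.

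Among the 10, the promoters of the 5 Kupffer cell genes are shown because these genes were low together in the xenografts, and that of Mrc1 because it was high there. The sequences are RefSeq's on GRCm38.p6, 5′ to 3′ on the strand of the gene, and stop before the first exon base that GENCODE M21 annotates. Clec4f lies on the minus strand at chr6:83656188-83656366, Vsig4 on the minus strand at chrX:96293439-96293688, Marco on the minus strand at chr1:120505025-120505274, Timd4 on the plus strand at chr11:46810549-46810798, Cd5l on the plus strand at chr3:87357631-87357880 and Mrc1 on the plus strand at chr2:14229164-14229391. Capitals mark GAGGAA, a core of sites for the macrophage factor PU.1, and TGCTGA, a half-site of MAF factors, each searched on both strands. No 2 matches overlap.
Clec4f: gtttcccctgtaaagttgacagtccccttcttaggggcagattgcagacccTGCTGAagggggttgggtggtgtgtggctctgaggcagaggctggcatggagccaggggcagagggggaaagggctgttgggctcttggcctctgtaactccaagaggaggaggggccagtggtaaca
Vsig4: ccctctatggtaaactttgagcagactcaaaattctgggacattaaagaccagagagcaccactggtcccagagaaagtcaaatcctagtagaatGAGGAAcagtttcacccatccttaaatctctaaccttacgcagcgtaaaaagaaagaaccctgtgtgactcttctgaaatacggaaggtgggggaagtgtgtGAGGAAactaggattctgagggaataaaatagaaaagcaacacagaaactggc
Timd4: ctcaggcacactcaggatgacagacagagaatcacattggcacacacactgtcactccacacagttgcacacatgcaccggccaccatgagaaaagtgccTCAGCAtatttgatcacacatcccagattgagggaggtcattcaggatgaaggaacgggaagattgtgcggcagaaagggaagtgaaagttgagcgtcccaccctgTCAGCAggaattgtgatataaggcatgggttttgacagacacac
Cd5l: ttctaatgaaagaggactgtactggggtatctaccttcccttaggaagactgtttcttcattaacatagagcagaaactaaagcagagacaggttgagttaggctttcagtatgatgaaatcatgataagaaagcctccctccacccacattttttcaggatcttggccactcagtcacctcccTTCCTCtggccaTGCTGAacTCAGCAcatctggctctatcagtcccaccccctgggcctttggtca
Marco: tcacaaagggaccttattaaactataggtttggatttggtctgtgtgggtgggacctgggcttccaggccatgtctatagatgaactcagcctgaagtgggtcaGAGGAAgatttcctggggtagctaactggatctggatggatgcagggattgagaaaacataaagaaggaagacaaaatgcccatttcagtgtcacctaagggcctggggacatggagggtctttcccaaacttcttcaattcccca
Mrc1: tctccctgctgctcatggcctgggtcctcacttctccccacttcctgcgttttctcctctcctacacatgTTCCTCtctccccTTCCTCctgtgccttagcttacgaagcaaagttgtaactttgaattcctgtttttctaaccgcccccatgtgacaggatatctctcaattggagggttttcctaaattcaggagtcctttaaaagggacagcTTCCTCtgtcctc
The RefSeq window of 250 bases before the start was read for 9 of the 10 genes, and that of Csf1r was not read. GAGGAA was found in 5 of the 9 (Vsig4, Cd5l, Marco, Cd68 and Mrc1) and in 23.3% of 32851 promoter windows of the same length. TGCTGA was found in 4 of the 9 (Clec4f, Timd4, Cd5l and Lyz2) and in 16.1% of all windows. A match is a string of letters and was not tested as a binding site.

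The resident Kupffer cell genes separated the models on both diets. Clec4f, a C-type lectin receptor used to identify mouse Kupffer cells, stood at 76.6, 147 and 76.6 CPM in control livers 101, 102 and 103 and at 161, 109 and 208 CPM in No-Trp livers 105, 107 and 108. In the control xenografts 40, 41 and 43 it stood at 0.932, 0.718 and 1.16 CPM, and in No-Trp xenografts 35, 36 and 37 at 0.798, 0.701 and 0.467 CPM, from 11 to 22 reads per library. Livers and xenografts did not overlap, while the diet groups overlapped within each model. Xenografts were lower by a log2 FC of -6.76 on the control diet (108-fold, SE 0.39, edgeR adjusted p = 6.98e-08) and of -7.90 on the No-Trp diet (239-fold, SE 0.41, edgeR adjusted p = 3.10e-08).

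Cd5l, a secreted scavenger receptor protein that macrophages release into plasma, was the most abundant of the 5 in livers, also per kilobase of exon. It stood at 183, 339 and 303 CPM in the control livers (101, 102, 103) and at 301, 99.9 and 225 CPM in the No-Trp livers (105, 107, 108). The xenografts held 0.981, 2.07 and 2.50 CPM on the control diet (40, 41, 43) and 2.10, 1.83 and 3.69 CPM on the No-Trp diet (35, 36, 37). Every liver lay far above every xenograft, and the diet groups overlapped within each model. The log2 FC of xenografts against livers was -7.22 on the control diet (SE 0.55, edgeR adjusted p = 6.78e-07) and -6.37 on the No-Trp diet (SE 0.53, edgeR adjusted p = 1.24e-06).

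Vsig4, a complement receptor with which Kupffer cells catch bacteria, ran from 21.6 to 36.0 CPM in control livers and from 35.5 to 57.0 CPM in No-Trp livers. In xenografts it ran from 0.637 to 3.05 CPM on the control diet and from 1.17 to 7.22 CPM on the No-Trp diet, with the highest value in xenograft 35. It was lower in xenografts by a log2 FC of -3.96 on the control diet (SE 0.67, edgeR adjusted p = 0.000364) and of -3.79 on the No-Trp diet (SE 0.65, edgeR adjusted p = 0.000373).

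Timd4, a receptor for phosphatidylserine on dying cells that marks long-lived resident macrophages, ran from 10.1 to 17.7 CPM in control livers and from 9.59 to 25.1 CPM in No-Trp livers. The control xenografts 40, 41 and 43 held 0.490, 0.598 and 0.427 CPM, and the No-Trp xenografts 35, 36 and 37 held 0.943, 1.03 and 6.70 CPM. Xenograft 37 therefore lay nearest the livers. The log2 FC against livers was -4.85 on the control diet (SE 0.78, edgeR adjusted p = 0.000226) and -2.65 on the No-Trp diet (SE 0.67, edgeR adjusted p = 0.00490), and the latter was -4.18 without xenograft 37.

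Marco, a scavenger receptor for bacteria and particles, had the widest range of the 5 among livers, relative to its level. It stood at 9.26, 47.6 and 14.3 CPM in control livers 101, 102 and 103 and at 100.3, 18.5 and 109.8 CPM in No-Trp livers 105, 107 and 108. The control xenografts held 0.588 to 0.975 CPM, while the No-Trp xenografts 35, 36 and 37 held 0.435, 1.30 and 8.65 CPM. Control liver 101 lay close above xenograft 37, the highest xenograft. The log2 FC of xenografts against livers was -5.00 on the control diet (SE 1.15, edgeR adjusted p = 0.00302) and -4.48 on the No-Trp diet (SE 1.06, edgeR adjusted p = 0.00338), and the latter was -6.43 without xenograft 37.

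**Figure D1:**
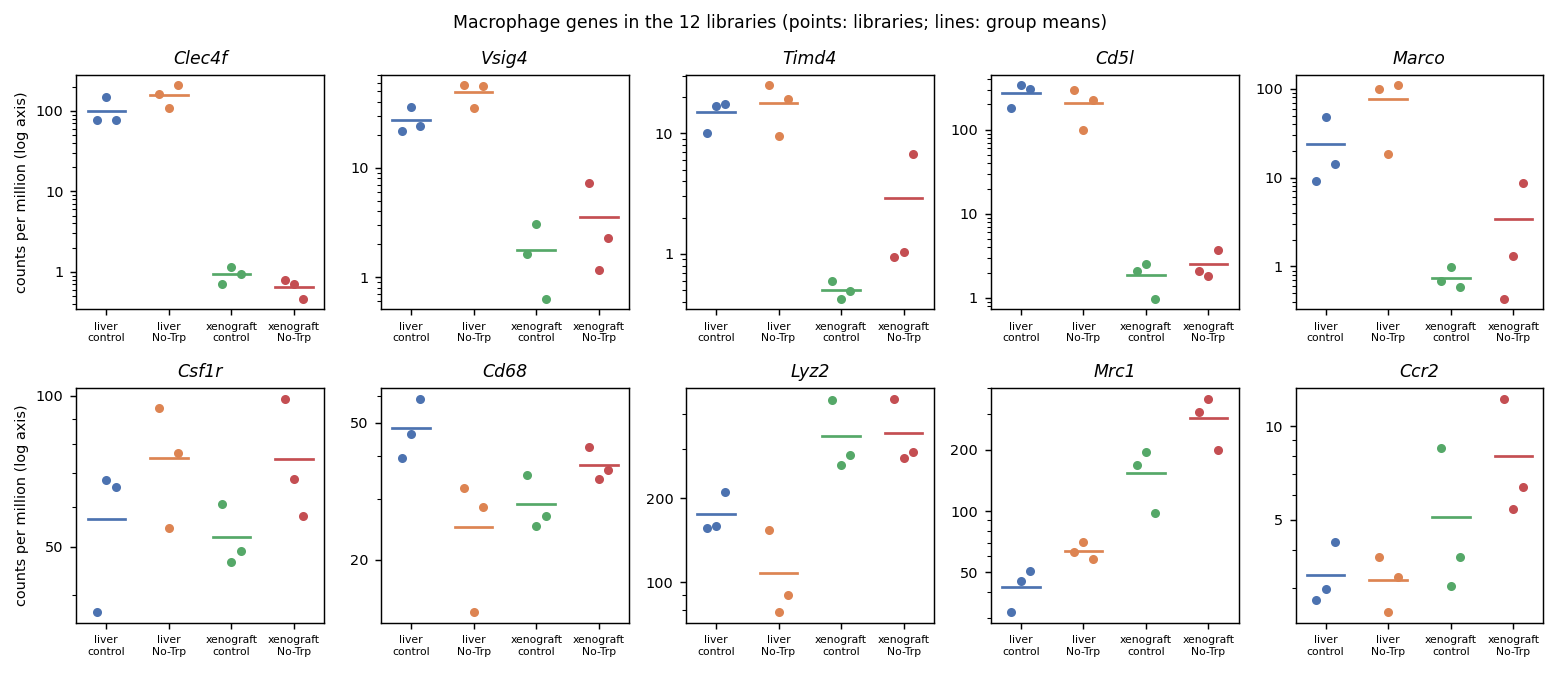
CPM on a log axis of the 10 genes in the 4 groups, with 1 point per library and a line at each group mean. The 5 Kupffer cell genes in the upper row are lower in all 6 xenografts than in all 6 livers, while Csf1r, from 37.1 to 98.7 CPM, overlaps between the models.

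Csf1r, the receptor for the growth factors that macrophages need to survive, did not separate the models. It stood at 37.1, 67.9 and 65.7 CPM in control livers 101, 102 and 103, at 94.4, 54.6 and 76.8 CPM in No-Trp livers 105, 107 and 108, at 49.0, 60.9 and 46.6 CPM in control xenografts 40, 41 and 43 and at 98.7, 68.3 and 57.7 CPM in No-Trp xenografts 35, 36 and 37. Every pair of neighbouring groups overlapped in the order of its levels. The log2 FC of xenografts against livers was -0.12 on the control diet (SE 0.27, edgeR adjusted p = 0.717) and -0.01 on the No-Trp diet (SE 0.27, edgeR adjusted p = 0.983). Scaling to library totals, which moves the median log2 FC of all genes to 0.17 and 0.68 on these diets, turned the sign (0.02 and 0.51). Its exons share 873 bases with Hmgxb3 on the opposite strand. The strand setting of the counting is not given in the sources used here, so reads from that stretch may belong to either gene. Hmgxb3 held 435 to 1181 reads per library and Csf1r 765 to 2720.

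Cd68, a lysosomal membrane protein, ran in opposite orders in the models. Its control livers (39.4 to 58.9 CPM) lay above the control xenografts (25.0 to 35.1 CPM), and its No-Trp livers (14.1 to 32.4 CPM) below the No-Trp xenografts (34.3 to 42.5 CPM). The log2 FC of xenografts against livers was -0.73 on the control diet (SE 0.27, edgeR adjusted p = 0.0358) and 0.60 on the No-Trp diet (SE 0.28, edgeR adjusted p = 0.0793), both below the fold threshold.

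Lyz2, the lysozyme of macrophages and neutrophils, and Mrc1, a mannose receptor of macrophages that sinusoidal endothelium also carries, lay on the other side from the Kupffer cell genes. Lyz2 ran from 156 to 210.4 CPM in control livers, 78.5 to 155 in No-Trp livers, 264 to 451 in control xenografts and 278 to 455 in No-Trp xenografts. Its log2 FC of xenografts against livers was 0.93 on the control diet (SE 0.30, edgeR adjusted p = 0.0177), short of the fold threshold, and 1.67 on the No-Trp diet (SE 0.30, edgeR adjusted p = 0.000512). Mrc1 ran from 32.0 to 50.7 CPM in control livers, 58.0 to 70.7 in No-Trp livers, 97.9 to 194 in control xenografts and 199.8 to 357 in No-Trp xenografts, and no neighbouring groups overlapped in that order. Its log2 FC of xenografts against livers was 1.85 on the control diet (SE 0.28, edgeR adjusted p = 0.000135) and 2.17 on the No-Trp diet (SE 0.28, edgeR adjusted p = 3.88e-05). Lyz1, the near copy of Lyz2, held 4 to 11 reads per liver and 5 to 115 per xenograft against 1159 to 12551 reads of Lyz2.

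Ccr2, the receptor that draws monocytes out of the blood, was the lowest of the 10 in livers, also per kilobase of exon, at 2.75 to 4.23 CPM on the control diet and 2.52 to 3.78 CPM on the No-Trp diet. Control xenografts 40, 41 and 43 held 3.78, 8.50 and 3.05 CPM and No-Trp xenografts 35, 36 and 37 held 12.3, 5.40 and 6.36 CPM. Its log2 FC of xenografts against livers was 0.62 on the control diet (SE 0.44, edgeR adjusted p = 0.239) and 1.33 on the No-Trp diet (SE 0.44, edgeR adjusted p = 0.0211). The call on the No-Trp diet was lost without liver 107 (log2 FC 1.15), liver 108 (1.34) or xenograft 35 (0.88), with edgeR adjusted p from 0.0503 to 0.117.

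On the control diet 5 of the 10 genes were lower and 1, Mrc1, was higher in xenografts, against 43.5% of 15472 genes that passed the test (20.2% lower and 23.3% higher). On the No-Trp diet the same 5 were lower and 3 were higher (Mrc1, Lyz2 and Ccr2), against 43.7% (19.1% lower and 24.5% higher). DESeq2 gave the same 6 and 8 genes, against 35.2% and 35.3% of the 20086 genes in that fit. By adjusted p alone 8 of the 10 passed on either diet, against 59.5% of all genes on the control diet, 59.6% under No-Trp. Livers and xenografts did not overlap for 8 of the 10 on the control diet (65.1% of all genes) and for 9 on the No-Trp diet (66.9%). In the libraries without a resubmission mark the control xenografts are mouse 40 alone, and its spread is assumed to be that of the other groups. The number of the 10 that passed in that fit is therefore not given here. Marco did not pass there on the control diet (log2 FC -5.70, SE 2.26, edgeR adjusted p = 0.0862). Model, tissue site, strain, sex and host immune system differ together between livers and xenografts and cannot be told apart. The comparisons of the models use the same libraries as those of the diets.

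Per kilobase of exon, the scale on which genes can be compared within a group, the order also turned between models. In control livers Cd5l (135 ± 40.3 CPM per kb, SD, n = 3) and Lyz2 (133 ± 23.0) stood first, then Clec4f (40.5 ± 16.5) and Cd68 (38.3 ± 7.85), and Csf1r (9.85 ± 2.97) was seventh of 10. In control xenografts Lyz2 (254 ± 77.5 CPM per kb, SD, n = 3) was followed by Mrc1 (24.1 ± 7.84), Cd68 (23.0 ± 4.32) and Csf1r (9.04 ± 1.33). The 5 Kupffer cell genes there were each at 1.20 CPM per kb or less.

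Lists of other macrophage genes were compared in the same way. Of 20 pan-macrophage genes, which macrophages of most tissues express, 3 were higher and 2 lower in xenografts on the control diet (median log2 FC 0.33, against 0.01 over all genes), and 5 higher and 2 lower under No-Trp (median 0.60, against 0.15). Their summed CPM ran from 1805 to 2376 in control livers, 2108 to 2546 in No-Trp livers, 1761 to 2284 in control xenografts and 1687 to 2396 in No-Trp xenografts, so that all groups overlapped. The lysosomal protease Ctsb supplied the largest mean of the list, 781 CPM in control xenografts and 1178 in control livers. Without Ctsb the sums of the other 19 genes were 942 ± 170.3 CPM (SD, n = 3) in control livers and 1257 ± 186 in control xenografts, with ranges of 756 to 1091 and 1046 to 1397 CPM that still overlapped. On the No-Trp diet these sums were 900 ± 247 CPM in livers and 1253 ± 300.2 in xenografts (SD, n = 3). Their ranges, 620 to 1086 and 980 to 1575 CPM, overlapped too, with the higher mean in xenografts on both diets. Lgmn, named after its values were seen, supplied the largest means of these 19. On the control and No-Trp diets it held 189 and 161 CPM in livers and 344 and 335 CPM in xenografts. Cd14, a receptor for bacterial lipopolysaccharide, was higher in xenografts (log2 FC 2.53 on the control diet, SE 0.51, edgeR adjusted p = 0.00122), as was Fcgr1, an antibody receptor (1.82, SE 0.34, edgeR adjusted p = 0.000650). Mertk, a receptor for the uptake of dying cells, was lower (-1.68, SE 0.22, edgeR adjusted p = 4.11e-05).

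Of 12 further Kupffer cell markers, 8 were lower and 3 higher in xenografts on the control diet, and 5 lower and 2 higher on the No-Trp diet. Il18bp, which binds the cytokine IL-18, had a log2 FC of -2.97 on the control diet (SE 0.35, edgeR adjusted p = 1.55e-05), and the iron exporter Slc40a1 one of -1.74 (SE 0.29, edgeR adjusted p = 0.000251). Hepatocytes too express some of this list, among them Slc40a1, Hpgd, Nr1h3 and C6. Fcna, a lectin of the complement system, stood at 53.0 ± 15.3 CPM (SD, n = 3) in control livers and 14.9 ± 0.724 in control xenografts (log2 FC -1.84, SE 0.26, edgeR adjusted p = 7.07e-05). Cd163 and Folr2, which many tissue macrophages carry, were higher in xenografts on both diets, and were singled out after their values were seen. Without the marked libraries the counts were 0 higher and 5 lower on the control diet and 2 higher and 4 lower under No-Trp.

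Of 12 monocyte and recruited macrophage genes, 7 were higher and 3 lower in xenografts on the control diet, and 8 higher and 0 lower under No-Trp. F13a1, a clotting factor subunit of monocytes and tissue macrophages, stood at 3.98 ± 1.53 CPM in control livers and 38.8 ± 4.70 in control xenografts (SD, n = 3; log2 FC 3.27, SE 0.33, edgeR adjusted p = 4.61e-06). Vcan, a matrix proteoglycan, had a log2 FC of 4.24 (SE 0.20, edgeR adjusted p = 1.50e-08) and Cd44, an adhesion receptor, one of 4.56 (SE 0.17, edgeR adjusted p = 4.70e-09). Carcinoma cells and fibroblasts also express Vcan and Cd44, and Cd44 held the largest mean of the list. Ly6c2 and Chil3, genes of classical monocytes and of marrow precursors, were among those lower on the control diet and are named after their values were seen. The summed CPM of the list ran from 75.6 to 153 in livers and from 1060 to 1483 in xenografts.

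Of 11 macrophage growth factors and monocyte chemokines, 8 were higher and 1 lower in xenografts on the control diet, and 9 higher and 1 lower under No-Trp. The 2 ligands of Csf1r were among those higher on the control diet, Csf1 with a log2 FC of 1.54 (SE 0.21, edgeR adjusted p = 6.21e-05) and Il34 with 4.56 (SE 0.29, edgeR adjusted p = 1.23e-07). Ccl2, the main ligand of Ccr2, had a log2 FC of 2.51 (SE 0.36, edgeR adjusted p = 8.73e-05), and Ccl12, another ligand of that receptor, one of 5.40 (SE 0.40, edgeR adjusted p = 3.47e-07). Csf1 and Ccl2 were singled out for their receptors after values were seen. The gene that was lower was Cxcl12 (-3.46, SE 0.53, edgeR adjusted p = 0.000174), the most abundant of the list in livers. Of 8 lipid-associated macrophage genes 5 were higher and 3 lower on the control diet, and 4 higher and 1 lower under No-Trp. Spp1 (6.38, SE 0.45, edgeR adjusted p = 2.58e-07) and Cd9 (2.73, SE 0.26, edgeR adjusted p = 2.50e-06) were among those higher, with Lgals3 (2.99, SE 0.26, edgeR adjusted p = 1.34e-06), and all 3 are also genes of carcinoma cells.

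**Figure D2:**
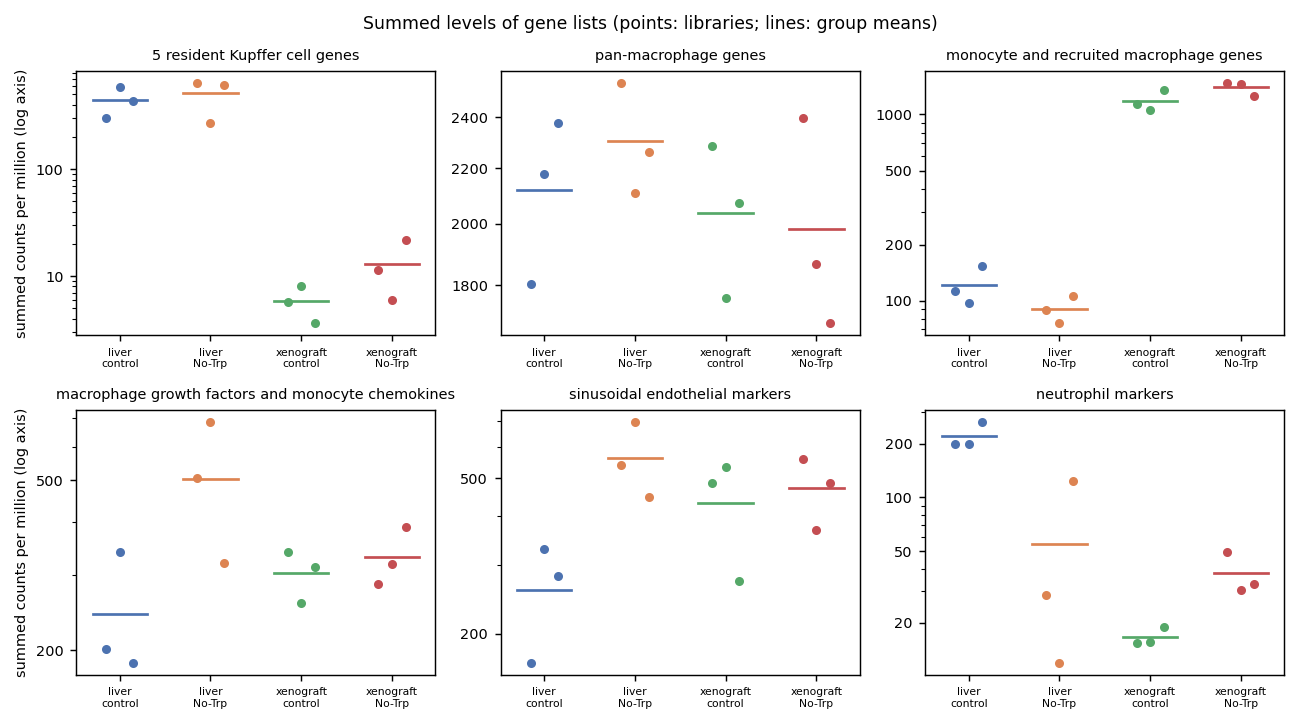
Summed CPM on a log axis of 6 gene lists in the 4 groups, with 1 point per library and a line at each group mean. The pan-macrophage sums overlap in all groups (1687 to 2546 CPM), while the sums of the 5 Kupffer cell genes run from 273 to 644 CPM in livers and from 3.63 to 21.8 CPM in xenografts. Without Ctsb, which is not drawn, the pan-macrophage means on the control and No-Trp diets are 942 and 900 CPM in livers and 1257 and 1253 CPM in xenografts.

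Markers of other white blood cells were set against the same shares of all genes. In xenografts these were 20.2% lower and 23.3% higher on the control diet, and 19.1% lower and 24.5% higher under No-Trp. Of 11 neutrophil markers 9 were lower and 0 higher in xenografts on the control diet, led by Elane (log2 FC -7.90, SE 1.01, edgeR adjusted p = 3.57e-05), and 4 lower and 1 higher on the No-Trp diet. Of 12 tested T, B and NK cell markers 2 were lower on the control diet, 1 was lower under No-Trp, and 0 were higher on either. None of these counts is above the share of all genes. Their sums ran from 6.58 to 12.5 CPM in livers and from 2.90 to 24.9 CPM in xenografts. The class II antigen presentation genes had 5 of 7 higher on the control diet, with Cd74 at a log2 FC of 1.18 (SE 0.24, edgeR adjusted p = 0.00109), and 2 of 7 on the No-Trp diet. Of 8 dendritic cell markers 1 was higher on the control diet (Itgax, 2.37, SE 0.35, edgeR adjusted p = 0.000108) and 4 on the No-Trp diet. The count on the control diet is below the share of all genes.

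In livers the No-Trp diet left none of the 10 genes past the edgeR test (0 of 10, against 16.5% of 14122 genes, 9.28% higher and 7.27% lower). DESeq2 also called 0, against 16.1% of the 18881 genes in that fit. At an unadjusted p under 0.05 there were 4 (Vsig4, Cd68, Lyz2 and Mrc1), against 41.8% of all genes. By adjusted p alone 1 of 10 passed, against 25.3% of all genes. The median log2 FC of the 10 was 0.35, against -0.00 over all genes. The count of calls over all genes rested on single libraries. It was 2.06% of genes without liver 101, 0.0562% (8 genes) without liver 103, 2.55% without liver 105, 8.85% without liver 107, 14.8% without liver 108 and 22.3% without liver 102.

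Of the 5 Kupffer cell genes 4 had a log2 FC above 0 in livers and 1 below, and a difference between them was not tested. Vsig4 had a log2 FC of 0.87 on the No-Trp diet (SE 0.26, edgeR adjusted p = 0.0496), with values of 21.6, 36.0 and 24.3 CPM in control livers 101, 102 and 103 and of 57.0, 35.5 and 55.6 CPM in No-Trp livers 105, 107 and 108. Marco had 1.70 (SE 0.81, edgeR adjusted p = 0.156) and Clec4f 0.69 (SE 0.33, edgeR adjusted p = 0.160). In each of these genes liver 102 was the highest control liver and liver 107 the lowest No-Trp liver. Without liver 102, Clec4f (log2 FC 1.06, edgeR adjusted p = 0.0321), Vsig4 (1.10, edgeR adjusted p = 0.0219) and Marco (2.68, edgeR adjusted p = 0.0349) passed the test, and without liver 107 Vsig4 did (1.05, edgeR adjusted p = 0.0380). These 3 and 1 of 10 stand against 22.3% and 8.85% of all genes in the same fits. Timd4 had a log2 FC of 0.28 (SE 0.38, edgeR adjusted p = 0.605) and Cd5l one of -0.38 (SE 0.41, edgeR adjusted p = 0.515). In livers without a resubmission mark (102 and 103 against 105 and 107) the values were 0.62 for Vsig4, 0.94 for Marco, 0.27 for Clec4f, -0.00 for Timd4 and -0.68 for Cd5l, and 0 of the 14198 genes tested passed.

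Among the general macrophage genes, Cd68 and Lyz2 were lower and Mrc1 was higher in all 3 No-Trp livers than in all 3 control livers, and none of them passed the adjusted test. Groups that do not overlap were found for 3 of the 10 genes and for 48.6% of all genes. Cd68 stood at 39.4, 46.3 and 58.9 CPM in control livers 101, 102 and 103 and at 32.4, 14.1 and 28.4 CPM in No-Trp livers 105, 107 and 108 (log2 FC -0.94, SE 0.32, edgeR adjusted p = 0.0685). Lyz2 stood at 156, 159.8 and 210.4 CPM and at 155, 78.5 and 90.1 CPM (log2 FC -0.69, SE 0.28, edgeR adjusted p = 0.107). Mrc1 stood at 32.0, 45.2 and 50.7 CPM and at 62.9, 70.7 and 58.0 CPM (log2 FC 0.60, SE 0.21, edgeR adjusted p = 0.0683). Csf1r had a log2 FC of 0.42 (SE 0.29, edgeR adjusted p = 0.309) and Ccr2 one of -0.05 (SE 0.32, edgeR adjusted p = 0.920). Within the livers without a resubmission mark, Cd68 had -1.18, Lyz2 -0.67, Mrc1 0.47, Csf1r 0.15 and Ccr2 -0.20. DESeq2 gave Cd68 an adjusted p of 0.0327 at a log2 FC of -0.95, below the fold threshold.

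Set against Csf1r in the same library, Cd68, Lyz2 and Cd5l lay lower in every No-Trp liver than in every control liver. Cd68 had 106, 68.1 and 89.7 reads per 100 reads of Csf1r in control livers 101, 102 and 103 and 34.3, 25.8 and 36.9 in No-Trp livers 105, 107 and 108. Lyz2 had 421, 235 and 320 against 164, 144 and 117. Cd5l had 492, 499.6 and 462 against 319, 183 and 293. None of these groups overlapped, and each ratio had the smallest two-sided p that an exact permutation test of 3 against 3 can give, 0.1. Vsig4 per 100 Csf1r reads ran the other way, at 37.0 to 58.3 in control and 60.3 to 72.4 in No-Trp livers (exact permutation p = 0.1). Clec4f, Timd4, Marco, Mrc1 and Ccr2 overlapped between the diets on this scale in livers. In xenografts Lyz2 (567 to 740 per 100 Csf1r reads on the control and 408 to 507 on the No-Trp diet) and Clec4f (1.18 to 2.48 and 0.809 to 1.02) did not overlap and lay lower on the No-Trp diet (exact permutation p = 0.1 each), and the other 7 overlapped. The share of all genes whose diet groups do not overlap was not computed on this scale. On CPM it was 48.6% in livers and 22.6% in xenografts. Clec4f held only 11 to 22 reads per xenograft. A ratio shows that 2 genes moved unequally, not which of them moved.

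**Figure D3:**
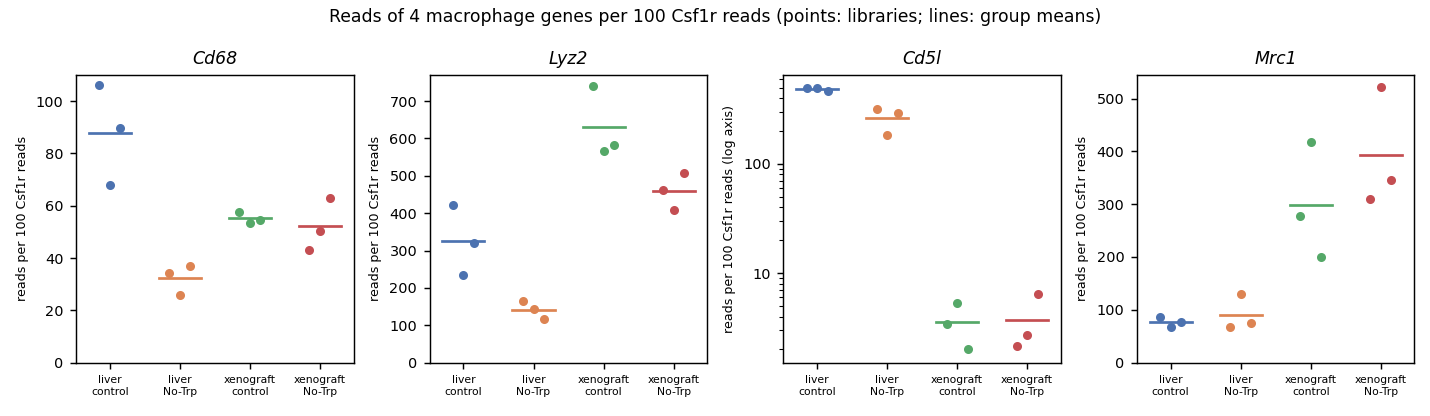
Reads of Cd68, Lyz2, Cd5l (log axis) and Mrc1 per 100 reads of Csf1r in the 4 groups, with 1 point per library and a line at each group mean. Cd68 runs from 68.1 to 106 in control livers and from 25.8 to 36.9 in No-Trp livers, and the xenografts lie between 43.1 and 63.1 on either diet.

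The wider lists in livers showed pan-macrophage genes with 0 of 20 past the edgeR test (0 at an unadjusted p under 0.05 and 0 by DESeq2; median log2 FC -0.06). Of the 12 further Kupffer cell markers 3 were higher on the No-Trp diet: Cd207, a C-type lectin (log2 FC 2.27, SE 0.49, edgeR adjusted p = 0.0239), Nr1h3, the oxysterol receptor LXR alpha (1.07, SE 0.26, edgeR adjusted p = 0.0298), and Cd163, the receptor for haptoglobin-bound hemoglobin (1.38, SE 0.36, edgeR adjusted p = 0.0331). Their number ran from 0 to 5 when 1 library was left out. Of the 12, 0 passed as lower, and 9.28% of all genes passed as higher. The median log2 FC of the 12 was 0.09, against -0.00 over all genes. Spic (-1.05, edgeR adjusted p = 0.141) and C6 (-2.06, edgeR adjusted p = 0.229) lay below 0 and are named after their values were seen. Hepatocytes also express Nr1h3. Of the monocyte genes 0 of 12 passed the edgeR test, with 2 at an unadjusted p under 0.05 and 1 lower by DESeq2. Of the growth factors and chemokines 0 of 9 tested passed, with 3 at an unadjusted p under 0.05 and 1 higher by DESeq2. Fabp5, a fatty acid binding protein, was the 1 of 8 lipid-associated genes that passed, and it was lower (-1.41, SE 0.42, edgeR adjusted p = 0.0472).

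Markers of other cells moved with the diet in the same livers. Of 12 sinusoidal endothelial markers 7 were higher on the No-Trp diet (median log2 FC 1.37), with Clec1b at 1.37 (SE 0.25, edgeR adjusted p = 0.0195), Fcgr2b at 1.62 (SE 0.31, edgeR adjusted p = 0.0198) and Ptprb at 1.88 (SE 0.36, edgeR adjusted p = 0.0201). Their sums ran from 169 to 329 CPM in control and from 447 to 696 CPM in No-Trp livers. Mrc1 and Stab1 are genes of this endothelium as well as of macrophages. Of 11 neutrophil markers 1 was lower (Elane, -3.38, SE 0.80, edgeR adjusted p = 0.0291), 3 were by DESeq2, and the sums ran from 199 to 264 CPM in control and reached at most 124 CPM in No-Trp livers. Lyz2 is a gene of neutrophils as well as of macrophages. Of 8 erythroid markers 6 were lower and of 8 proliferation genes 6 were lower, while of 10 hepatocyte markers 3 were higher. Of 6 tested dendritic cell markers 2 were higher, Zbtb46 (1.85, SE 0.48, edgeR adjusted p = 0.0345) and Clec9a (1.45, SE 0.40, edgeR adjusted p = 0.0381). Both were low, at 1.17 and 1.25 CPM on average in control livers. Of 10 stellate cell and fibroblast markers 3 were higher and 1 lower. With 1 library left out these counts ran from 0 to 9 for sinusoidal endothelial, 0 to 8 for neutrophil, 0 to 6 for erythroid, 0 to 8 for proliferation and 0 to 5 for hepatocyte genes. They ran from 0 to 2 for dendritic cell genes, and from 0 to 4 higher and 0 to 1 lower for stellate cell genes. In the livers without a resubmission mark none of these lists had a gene past the test, as no gene of the table passed. The part of these cells in the levels of the 10 genes was not tested.

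In xenografts the No-Trp diet also left 0 of the 10 genes past the edgeR test, against 0.36% of 14704 genes (0.245% higher and 0.116% lower). At an unadjusted p under 0.05 there were 3 (Timd4, Mrc1 and Csf1r), against 16.9% of all genes. DESeq2 called 1, Timd4 (log2 FC 2.52, DESeq2 adjusted p = 0.0342), against 1.95% of the 19524 genes in that fit. Of the 10 log2 FC, 9 were above 0, with a median of 0.57 against -0.00 over all genes. Groups that do not overlap were found for 2 of the 10 (Timd4 and Mrc1) and for 22.6% of all genes.

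Timd4 had a log2 FC of 2.49 in xenografts (SE 0.84, edgeR adjusted p = 0.201), with all 3 No-Trp values above all 3 control values. It fell to 0.95 without xenograft 37, which alone held 158 reads where the other 5 tumors held 7 to 31. The same tumor had the highest summed level of T, B and NK cell markers, 24.9 CPM against 2.90 to 5.97 CPM in the other 5, and the part of such cells in its Timd4 and Marco was not tested. Marco had 2.21 (SE 1.03, edgeR adjusted p = 0.331) and 0.23 without xenograft 37. Vsig4 had 1.00 (SE 0.77, edgeR adjusted p = 0.554) and -0.03 without xenograft 35. Clec4f had -0.51 (SE 0.48, edgeR adjusted p = 0.630) and Cd5l 0.45 (SE 0.49, edgeR adjusted p = 0.684).

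Mrc1 stood at 97.9, 169 and 194 CPM in control xenografts 40, 41 and 43 and at 305, 357 and 199.8 CPM in No-Trp xenografts 35, 36 and 37 (log2 FC 0.89, SE 0.29, edgeR adjusted p = 0.201). The highest control and the lowest No-Trp tumor lay close together. Csf1r had a log2 FC of 0.51 (SE 0.21, edgeR adjusted p = 0.276), Cd68 0.37 (SE 0.18, edgeR adjusted p = 0.344), Ccr2 0.63 (SE 0.47, edgeR adjusted p = 0.536) and Lyz2 0.02 (SE 0.26, edgeR adjusted p = 0.978). In the tumors without a resubmission mark, mouse 40 alone stands for the control diet, and the values were 1.54 for Mrc1, 2.54 for Timd4, 0.60 for Csf1r, 0.48 for Cd68, 1.07 for Ccr2 and 0.25 for Lyz2, with 0 of 15527 genes past the test.

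**Figure D4:**
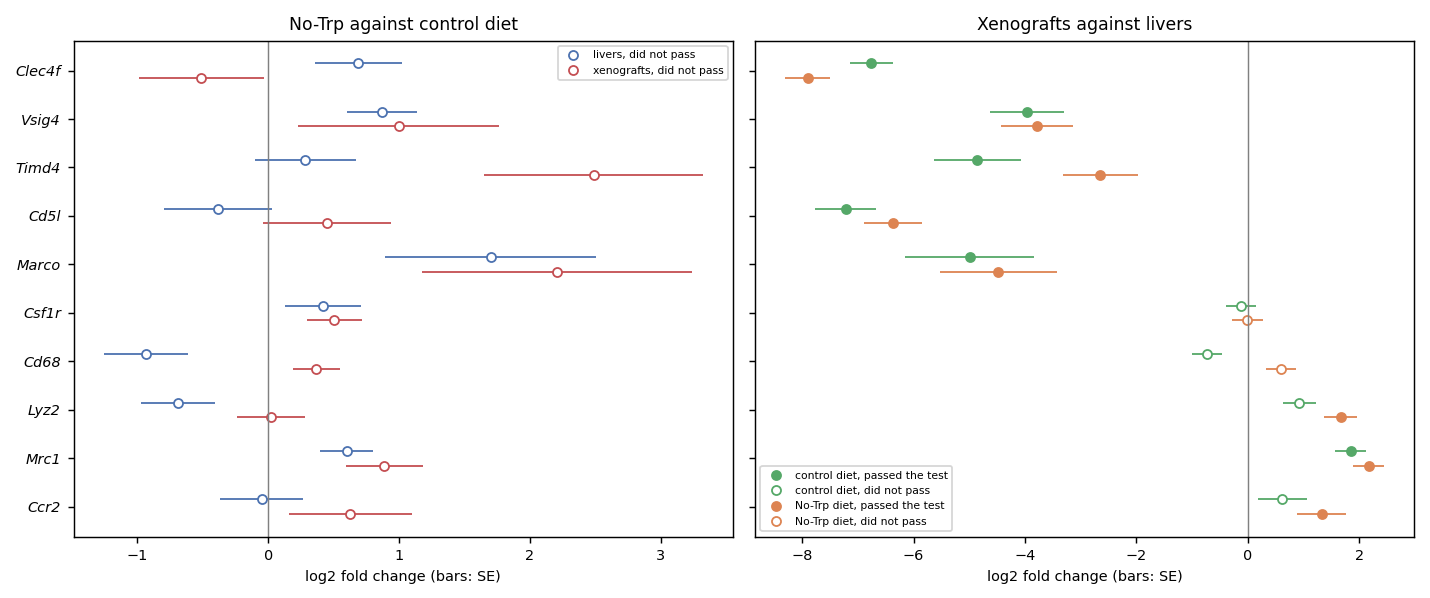
Log2 FC with bars of 1 SE for the 10 genes, on the No-Trp against the control diet in livers and xenografts (left) and in xenografts against livers on each diet (right); filled points passed the test. The left panel has no filled point, and on the right the 5 Kupffer cell genes lie between -7.90 and -2.65.

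Among the wider lists in xenografts, 0 of 20 pan-macrophage genes passed the edgeR test (0 at an unadjusted p under 0.05 and 0 by DESeq2; median log2 FC -0.00). Higher on the No-Trp diet were 1 of 11 tested Kupffer cell markers, 1 of 12 monocyte genes and 1 of 8 lipid-associated genes. In these lists 0 genes passed as lower. Over all genes 0.245% passed as higher. Of 11 growth factors and chemokines 0 passed by edgeR, with 1 higher and 1 lower by DESeq2. Fcna stood at 14.3 to 15.7 CPM in control and 32.0 to 50.0 CPM in No-Trp xenografts (log2 FC 1.50, SE 0.20, edgeR adjusted p = 0.0259), and F13a1 at 33.6 to 42.7 and 81.7 to 153 CPM (1.61, SE 0.23, edgeR adjusted p = 0.0366). Lpl, the lipoprotein lipase of adipocytes, muscle and some macrophages, stood at 5.93 to 15.5 and 80.4 to 137 CPM (3.20, SE 0.38, edgeR adjusted p = 0.0299). Just outside the threshold were Cd163, at 13.3 to 29.0 and 60.3 to 115 CPM (2.29, SE 0.38, edgeR adjusted p = 0.0551), and Lyve1, a hyaluronan receptor of lymphatic and sinusoidal endothelium and of some tissue macrophages (2.65, SE 0.41, edgeR adjusted p = 0.0506). Chil3, a chitinase-like protein of macrophages and neutrophils, ran from 0.609 to 0.997 CPM on the control and from 4.71 to 42.3 CPM on the No-Trp diet (5.02, SE 0.84, edgeR adjusted p = 0.0648). Spp1 (-1.06, edgeR adjusted p = 0.238) and Hmox1 (-0.70, edgeR adjusted p = 0.180) of the same lists lay below 0 and did not pass. The median log2 FC was -0.11 in the lipid-associated list. When 1 library was left out, the number that passed ran from 0 to 1 in the Kupffer cell list and from 0 to 3 in the monocyte list. Of the sinusoidal, neutrophil, erythroid, dendritic cell, class II and hepatocyte markers 0 passed in xenografts by edgeR, with 2 of 11, 4 of 7, 0 of 6, 5 of 8, 1 of 7 and 1 of 10 at an unadjusted p under 0.05, and DESeq2 called 1 sinusoidal and 1 hepatocyte marker. Of the proliferation and stellate cell lists 0 passed too, with 5 of 8 and 1 of 9 at that p, and DESeq2 called 1 stellate cell gene. The Kupffer cell, monocyte and lipid-associated lists had 4 of 11, 5 of 12 and 5 of 8 at that p, and DESeq2 called 2, 4 and 2 higher. Over all genes 16.9% lay under that p. The neutrophil sums ran from 15.4 to 19.0 CPM in control and from 30.5 to 49.6 CPM in No-Trp xenografts, and their part in the levels of Lyz2 and Chil3 was not tested.

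The effect of the diet differed between the models for 1 of the 10 genes, Cd68, by the interaction term of the fit over 12 libraries (1.33, SE 0.39, edgeR adjusted p = 0.0393), against 12.7% of 15472 genes (6.70% with the higher effect in xenografts and 6.01% with the lower; 15.6% by adjusted p alone). DESeq2 called Cd68 too (1.26, DESeq2 adjusted p = 0.0152), against 13.6% of the 20086 genes in that fit. The difference was 1.35 with the resubmission mark as a covariate (edgeR adjusted p = 0.0639) and 1.67 without the marked libraries (edgeR adjusted p = 0.127). It ran from 1.06 to 1.56 with 1 library left out. The call was lost without liver 103 (edgeR adjusted p = 0.101) or without xenograft 35 (0.0794), 36 (0.0618), 37 (0.0664), 40 (0.0776) or 43 (0.0861). For Clec4f the difference was -1.14 (SE 0.50, edgeR adjusted p = 0.139), and it passed without liver 102 (-1.52, edgeR adjusted p = 0.0290). For Timd4 it was 2.21 (SE 0.97, edgeR adjusted p = 0.138). The other 7 differences lay between 0.12 and 0.85 with edgeR adjusted p from 0.245 to 0.916. In the wider lists the diet effect was higher in xenografts than in livers for 8 of 8 proliferation, 5 of 8 erythroid, 3 of 8 lipid-associated and 3 of 11 neutrophil genes, and for 0 of 20 pan-macrophage genes (0 at an unadjusted p under 0.05 and 0 by DESeq2). It was lower for 3 of 10 hepatocyte markers and 1 of 11 growth factors and chemokines. Of 12 sinusoidal markers 3 were lower and 1 higher. The 12 further Kupffer cell markers split. Fcna was higher (1.70, SE 0.35, edgeR adjusted p = 0.0127) and Slc40a1 lower (-1.44, SE 0.40, edgeR adjusted p = 0.0322). Of the monocyte list 4 of 12 had a higher diet effect in xenografts than in livers, among them F13a1 (2.08, SE 0.45, edgeR adjusted p = 0.0141) and Chil3 (6.46, SE 1.41, edgeR adjusted p = 0.0160). Without the marked libraries xenograft 40 alone stands for its group, and the counts of the lists in that fit are not given here.

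The genes whose pattern over the 12 libraries lay nearest each of the 10, by the root mean squared difference of centred log2 CPM among 15472 genes, differed by role. Nearest Csf1r were Aoah (0.20), which inactivates lipopolysaccharide in myeloid cells, Nfam1 (0.21) and Mrgpre (0.22). Nearest Mrc1 were Prkx (0.33), Rassf2 (0.34) and the myeloid receptor Cd33 (0.35), and near Ccr2 were Rnf150 (0.30) and Acvrl1 (0.33). Near Clec4f were Agmat (0.35) and Cpb2 (0.36), genes of hepatocytes. Nearest Cd5l were Smad9 (0.45), Aldh1b1 (0.47) and Qprt (0.51), and nearest Vsig4 were Ppfibp2 (0.49), Fam169b (0.54) and Smyd1 (0.57). Nearest Timd4 were Art4 (0.58), Cobl (0.62) and Gldc (0.70), and nearest Marco were Cobl (0.95), Timd4 (0.95) and Il17rb (1.00). In xenograft 37 Cobl held 147 reads and Art4 27, against 13 to 53 and 0 to 6 in the other 5 tumors. Nearest Cd68 were Prps2 (0.19), Cdk5rap2 (0.20) and Ttf2 (0.22), genes of nucleotide synthesis, of the centrosome and of transcription termination, and nearest Lyz2 were Tmem65 (0.25), Prrt2 (0.26) and Adnp2 (0.27). These distances are descriptions over libraries that share their models and diets.

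The 10 genes lie on 9 mouse chromosomes (GENCODE M21, GRCm38): Marco on 1, Mrc1 on 2, Cd5l on 3, Clec4f on 6, Ccr2 on 9, Lyz2 on 10, Timd4 and Cd68 on 11, Csf1r on 18 and Vsig4 on X. Only Csf1r shares exon bases with another annotated gene. Mir511 lies in an intron of Mrc1 and Mir6983 in Csf1r, without shared exon bases.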

How the data were processed

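RNA was polyA-selected and sequenced from 12 mice, 3 per group. The authors deposited whole-number read counts per gene from HTSeq, 1 set per mouse. Their processing notes name Trim Galore, STAR 2.7.2b, SAMtools 1.9, Bowtie2 2.3.4.3, BWA 0.7.17 and DESeq2, with builds mm10 and GRCm38.p6. The strand setting is not given in the sources used here. Reads not counted on genes (24.7% to 39.4%) were left out. Counts were filtered with filterByExpr, scaled by TMM and tested with a robust quasi-likelihood fit (edgeR 4.0.16, R 4.3.3), over 6 libraries for each diet comparison and over 12 for the others, and p-values were adjusted over all genes tested. DESeq2 1.42.0 was an alternative. The 10 genes, 14 gene lists (150 of 152 genes found) and tests were chosen with earlier results of these data known. Beside the 10 genes, up to 3 list genes with the smallest adjusted p and the most abundant one per comparison could be named, with the 3 nearest genes of each member and the paralog Lyz1; some genes that this rule names are not reported here. The edgeR tests were tried on simulated counts, while DESeq2 and the permutation tests of the ratios were not.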

Additional observations from a re-analysis of the deposited data

Results flagged for a closer look

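Cd68, the lysosomal membrane protein, was the 1 gene of the 10 whose diet effect differed between the models by the interaction test: the log2 effect in xenografts minus that in livers was 1.33 (SE 0.39, edgeR adjusted p = 0.0393). Its log2 FC on the No-Trp diet was -0.94 in livers and 0.37 in xenografts, and neither passed the test alone. That is 1 of 10 genes, against 12.7% of all genes, so the share is not above the background. The call was lost in 8 of 21 alternative settings, among them the resubmission mark as a covariate (1.35, edgeR adjusted p = 0.0639), and the edgeR and DESeq2 adjusted p over the settings ran from 0.0152 to 0.127.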

How the results depend on the processing

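No paired analysis was possible because the groups share no mouse numbers. Leaving out 1 library, the number of the 10 genes past the test ran from 0 to 3 for the diet in livers, was 0 throughout in xenografts, and ran from 0 to 2 for the difference between models, 6 to 7 for models on the control diet and 7 to 8 for models on the No-Trp diet. In the same order, the share of all genes past the test ran from 0.0562% to 22.3%, 0.0599% to 0.517%, 5.83% to 16.2%, 40.4% to 43.3% and 40.3% to 43.6%. Without the fold threshold 1 gene passed in livers, DESeq2 called 1 in xenografts, and the difference between models had 0 with the resubmission mark as a covariate and 0 without the marked libraries. That last setting was chosen after seeing the data and leaves 1 control xenograft, assumed to vary like the others. Over single genes, 893 values kept direction and side of the threshold, 14 newly passed, 12 no longer passed and 27 changed sign, and the causes were not tested. The sign changed when 1 library was left out for the following log2 FC: in livers Timd4 (-0.028 to 0.581) and Ccr2 (-0.185 to 0.157), in xenografts Vsig4 (-0.0275 to 1.62) and Lyz2 (-0.22 to 0.299), in the difference between models Csf1r (-0.133 to 0.348), Vsig4 (-0.88 to 0.765) and Marco (-1.44 to 1.05), and between models on the No-Trp diet Csf1r (-0.255 to 0.188). Timd4 in livers was -0.00368 without marked libraries, and Csf1r in the difference between models was -0.0550 with the covariate. Csf1r between models was 0.0151 on the control diet with library totals, and on the No-Trp diet 0.509 with library totals, 0.00966 without a filter, 0.0265 with at least 10 counts in every library and 0.00751 without marked libraries. Library totals moved the median log2 FC of all genes to -0.30 in livers, 0.11 in xenografts and 0.41 for their difference. Genes past the test over the whole table in xenografts numbered 53, but 0 without marked libraries, 4 with the covariate and 380 by DESeq2. Clec4f, Timd4 and Marco in xenografts rest on few reads.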
